A study of Mus musculus with 23 samples.

Results

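The genotype difference after foot-shock was read from 11 of the 23 labelled mouse brain libraries of the series, 6 HT shock and 5 WT shock libraries, which were chosen by the genotype and treatment in their titles. HT is called heterotype in the titles and heterozygous in the series text, a genotype carrying 1 copy of an edited Grin2b allele named C456Y, and WT is wild type. All of these mice were male C57BL/6J, and both shock groups had received foot-shock, a brief current through a grid floor used as an aversive stimulus. The remaining 6 HT control and 6 WT control libraries came from the same genotypes without shock, and they share no library with the shock groups. The labels give postnatal day 17 for every library whereas the series text speaks of adult mice, so the age is unresolved. No brain region is named, and nothing states that the libraries of a group were taken from separate animals. The p-values therefore measure only library-to-library spread, which may be technical.

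Grin2b encodes GluN2B, a glutamate-binding subunit of the NMDA receptor, a synaptic channel that admits calcium when glutamate binds while the membrane is depolarized. Calcium entering through this receptor starts signalling to the nucleus, including the transcription of immediate early genes, and the receptor is needed for many forms of synaptic plasticity and for fear learning.

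The deposited values are normalized counts, whose totals lay between 31.45 M and 32.57 M (M, mega) in the 11 shock libraries and do not show sequencing depth, which is unknown. Markers of several brain regions were present together in every library. Among the shock libraries Slc17a7, a vesicular glutamate transporter of cortex and hippocampus, ranged from 28503 to 39606 normalized counts. Gabra6, a receptor subunit of cerebellar granule cells, ranged from 2119 to 3288, and Pmch, a hypothalamic neuropeptide gene, from 83 to 632. The first principal component of the shock libraries (18.5% of their variance) separated the genotypes, with HT libraries at 0.28 to 27.39 and WT libraries at -25.04 to -10.41. HT shock replicate 5 lay at 0.28, nearest to the WT libraries. Differences are on the scale log2(normalized count + 1), as HT shock minus WT shock, and a gene is called at an adjusted p under 0.05 (limma, Benjamini-Hochberg over all genes tested).

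Of 17118 genes tested, 1589 (9.28%) were called between HT shock and WT shock. Of all genes tested, 676 (3.95%) were called higher and 913 (5.33%) lower in HT shock. Most changes were small. The median difference was 0.20 among the genes called higher and -0.27 among those called lower, and 24 genes called higher and 65 called lower differed by over 1.5-fold. The libraries of the groups did not overlap for 1467 genes (8.57%), against 72 genes (0.421%) between HT control and WT control. The count of calls depended on single libraries. It was 422, 497, 577 and 839 without HT shock replicate 1, 2, 3 or 4, it was 756, 611, 723 and 851 without WT shock replicate 1, 2, 3 or 5, and it was 2923 without HT control replicate 6, which enters only the shared estimate of the spread. The count was 450 with libraries of equal title number fitted as a block, a setting that ended further calls of genes named below.

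**Figure D1:**
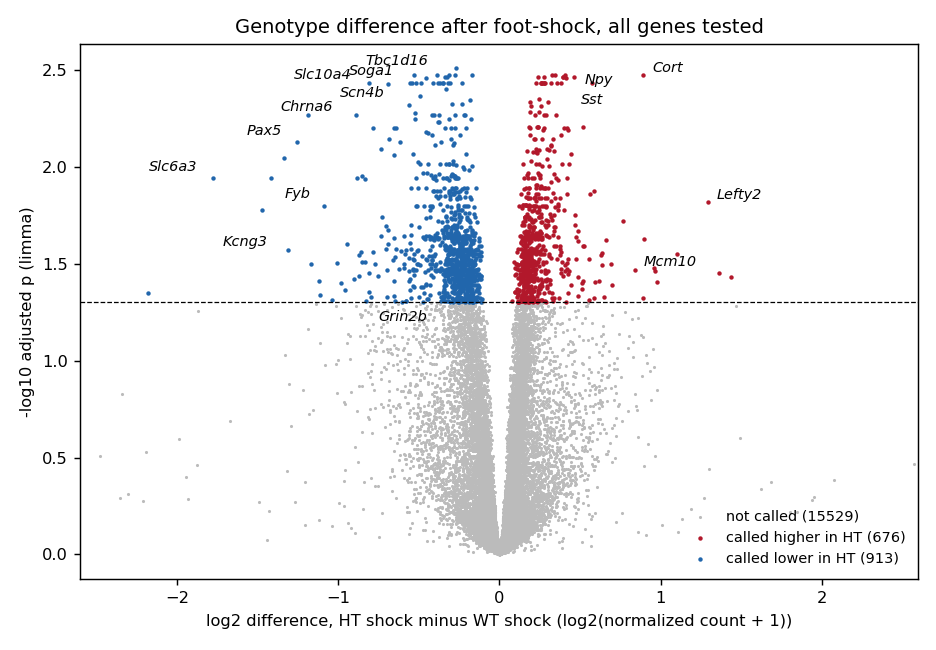
Difference between HT shock and WT shock on the log2 scale (x axis) against -log10 of the limma adjusted p (y axis) for the genes tested, with the dashed line at an adjusted p of 0.05. Red points are the 676 genes called higher in HT shock, blue points the 913 called lower, Grin2b lies just under the line, and 11 genes beyond 2.6 on either side, 2 of them called, lie outside the frame.

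Grin2b mRNA itself lay just short of the threshold. HT shock libraries ranged from 9874 to 11518 normalized counts with a median of 10717, and the WT shock libraries held 13111, 13831, 14218, 12272 and 10734. WT shock replicate 5 lay within the HT range and the other WT libraries above it. The difference was -0.26 ± 0.08 (SE, adjusted p = 0.0507), and after each library was corrected for trends on transcript length and GC content it was -0.01 (adjusted p = 0.88). Grin2b was called under 12 of the 36 alternatives tried, among them library weights (-0.26, adjusted p = 0.00877) and the omission of WT shock replicate 5 (-0.32, adjusted p = 0.0335). A missense allele can be transcribed normally, and the genotype labels are therefore not checked by this level. None of the 7 NMDA receptor subunit genes was called. The obligatory subunit gene Grin1 had 0.09 (adjusted p = 0.119), and the subunit list had a median of -0.086 (-0.014 without WT shock replicate 2), which was of the opposite sign after a correction for length alone.

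Genes within 2 Mb of either side of Grin2b lie closest to the edited allele. Of 31 tested, 1 was called higher and 1 lower, against 3.95% and 5.33% of all genes tested, and their median was 0.01. Wbp11, a splicing factor, had 0.14 ± 0.04 (SE, adjusted p = 0.0228) and was not called without HT shock replicate 1, HT shock replicate 3 or WT shock replicate 2 (adjusted p up to 0.063) or after the length and GC correction (0.08, adjusted p = 0.0689). Crebl2, a leucine zipper protein, had -0.17 ± 0.05 (adjusted p = 0.0405) and was not called without any of 8 shock libraries, HT replicates 1, 2, 3 and 4 and WT replicates 1, 2, 3 and 5 (adjusted p up to 0.108). None of the 31 was called after the length and GC correction, with Crebl2 at an adjusted p of 0.0515.

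Immediate early genes, which neurons transcribe within minutes of strong activity, mostly had positive differences, but few passed the test. Of 31 tested, 28 were positive with a median of 0.31, against 13 positive and a median of -0.004 between the unshocked groups. Only 2 were called higher and 0 lower, against 3.95% and 5.33% of all genes tested. Of all genes tested 49.2% had a negative difference after shock. Ier5, an immediate early response gene, ranged from 1874 to 2695 normalized counts in HT shock with a median of 2545. Its WT shock libraries held 1735, 1883, 2026, 1729 and 1573, so the groups overlapped through HT shock replicate 5 at 1874. Its difference was 0.45 ± 0.09 (SE, adjusted p = 0.00859). Jund, an AP-1 transcription factor, had 0.22 ± 0.05 (adjusted p = 0.0205) and was not called without HT shock replicate 2 or WT shock replicate 2 (adjusted p up to 0.0571) or after the length and GC correction (0.05, adjusted p = 0.316). The best known members, picked for that and not by their values, were not called. Fos had 0.53 (adjusted p = 0.38), Arc 0.68 (adjusted p = 0.292), Egr1 0.35 (adjusted p = 0.179) and Npas4 0.13 (adjusted p = 0.838, and -0.02 without WT shock replicate 5). List scores, the mean log2 deviation of the members from their means over the 23 libraries, ranged from -0.224 to 0.321 in HT shock, and those of WT shock from -0.446 to 0.113.

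Slower activity genes and secreted synaptic factors included 3 called higher and 0 lower of 15, against 3.95% and 5.33% of all genes tested. Their median was 0.06. Vgf, a secreted neuropeptide precursor, ranged from 6385 to 7945 normalized counts in HT shock with a median of 7597, and its WT shock libraries held 5830, 6365, 6621, 5923 and 5488. Only WT shock replicate 3 reached into the HT range. The difference was 0.30 ± 0.06 (SE, adjusted p = 0.00466). The pentraxin Nptx2 (0.26 ± 0.06, adjusted p = 0.0183) and its receptor Nptxr (0.17 ± 0.04, adjusted p = 0.011) were called higher too. After the length and GC correction Nptxr was still called (0.17, adjusted p = 0.00952), and Vgf (0.19, adjusted p = 0.0569) and Nptx2 (0.16, adjusted p = 0.107) were not. All of them also had positive differences between the unshocked groups, 0.21 for Vgf, 0.23 for Nptx2 and 0.11 for Nptxr.

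Interneuron markers and neuropeptides were called in both directions. Of 21 tested, 5 were called higher and 3 lower, against 3.95% and 5.33% of all genes tested, and 11 differences were positive and 10 negative. The 5 were Cort, Npy, Crhbp, Sst and Cck, and the 3 were Nos1 (-0.21), Gad2 (-0.20) and Kcnc1 (-0.12, and 0.007 after a correction for length alone). None of the 3 was called after the length and GC correction, at -0.08 for Nos1 (adjusted p = 0.166), -0.09 for Gad2 (adjusted p = 0.137) and -0.04 for Kcnc1 (adjusted p = 0.498). Of those called lower, 0 were left without HT shock replicate 1, HT shock replicate 3 or WT shock replicate 2, and 1 without HT shock replicate 2 or WT shock replicate 1, 3 or 5. The GABA synthesis gene Gad1 had -0.05 (adjusted p = 0.416) and the vesicular GABA transporter gene Slc32a1 -0.04 (adjusted p = 0.626). The list median was 0.08, against 0.06 between the unshocked groups and 0.004 over all genes tested. In bulk tissue fewer cells of a type and less RNA per cell cannot be told apart, here and in every cell type list described.

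Cort encodes cortistatin, a peptide related to somatostatin. HT shock libraries ranged from 102.9 to 194.1 normalized counts with a median of 149.7, and the WT shock libraries held 77.66, 69.89, 76.5, 81.7 and 80.63. Every HT library lay above every WT library, and the difference was 0.89 ± 0.14 (SE, adjusted p = 0.00337). Npy, neuropeptide Y, ranged from 1634 to 2058 in HT shock with a median of 1737, against 1307, 1477, 1277, 1264 and 1179 in WT shock. Sst, somatostatin itself, ranged from 4361 to 5344 with a median of 5100, against 3626, 3691, 3820, 3728 and 3729. The groups overlapped for neither gene, and the differences were 0.46 ± 0.08 for Npy and 0.42 ± 0.07 for Sst (adjusted p = 0.0035 for Sst and 0.00345 for Npy). Cck, cholecystokinin, ranged from 5522 to 6493 with a median of 6163 in HT shock, against 4562, 4930, 4838, 4915 and 4520 in WT shock, again without overlap (0.36 ± 0.06, adjusted p = 0.0037). These 4 genes stayed called under every alternative tried. Between the unshocked groups their differences had the same sign and were smaller, 0.23 for Cort, 0.22 for Npy, 0.12 for Sst and 0.13 for Cck. Smaller values are expected there for genes that were named by their difference after shock.

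The promoters of the 4 peptide genes are shown because the Sst promoter is the classic example of a cAMP response element, TGACGTCA, which the activity-regulated factor CREB binds. Each line holds the 130 bases before the transcription start (RefSeq, GRCm38.p6), with a match to TGACGTCA in capitals. The motif reads the same on both strands, and in Sst it begins 48 bases before the start.
Sst, chr16:23890845-23890974, minus strand: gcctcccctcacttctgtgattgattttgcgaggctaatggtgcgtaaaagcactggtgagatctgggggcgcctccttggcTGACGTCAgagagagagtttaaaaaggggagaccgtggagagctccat
Cort, chr4:149126764-149126893, minus strand: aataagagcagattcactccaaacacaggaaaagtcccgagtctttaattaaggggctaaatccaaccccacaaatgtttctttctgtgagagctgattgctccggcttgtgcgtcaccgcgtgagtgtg
Npy, chr6:49822580-49822709, plus strand: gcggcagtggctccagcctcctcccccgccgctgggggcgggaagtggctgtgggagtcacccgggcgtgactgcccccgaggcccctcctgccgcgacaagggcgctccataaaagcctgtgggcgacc
Cck, chr9:121495695-121495824, minus strand: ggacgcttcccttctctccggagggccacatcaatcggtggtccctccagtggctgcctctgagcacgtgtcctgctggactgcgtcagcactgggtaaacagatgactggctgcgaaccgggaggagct
Over the whole promoter windows of the reference table, 250 bases before to 50 after the start, the motif was found in 18 of the 519 genes called higher that have a promoter there (3.47%), 31 of 686 called lower (4.52%) and 385 of 12357 genes tested (3.12%). It was found in 1.88% of all promoters in the table. The shorter motif TGACG or CGTCA is not marked in the lines, and those of Cort and Cck hold it as CGTCA. This shorter motif was found in 32.6% of these promoters for genes called higher, 28.9% for genes called lower and 30.1% for genes tested.

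Cortical layer genes were called in both directions. Of 19 tested, 6 were called higher and 3 lower, against 3.95% and 5.33% of all genes tested. Their median was 0.14, and 0.04 without shock. Neurod6, a transcription factor of cortical and hippocampal projection neurons, had the smallest p of all genes called higher. It ranged from 1752 to 2017 normalized counts in HT shock with a median of 1968, and its WT shock libraries held 1470, 1570, 1602, 1705 and 1363. Every HT library was above every WT library (0.33 ± 0.05 SE, adjusted p = 0.00337). Slc17a7 ranged from 32715 to 39606 in HT shock with a median of 36895, against 30219, 32510, 30904, 31111 and 28503 in WT shock, without overlap (0.25 ± 0.05, adjusted p = 0.0045). Fezf2, which specifies deep-layer projection neurons (0.30), and Neurod2, a relative of Neurod6 (0.23), were called higher, as were Emx1 (0.37) and Rprm (0.29). Emx1 was not called without HT shock replicates 1, 2 or 3 or WT shock replicates 2 or 5 (adjusted p up to 0.0665). After the length and GC correction Fezf2 (0.22, adjusted p = 0.0612), Neurod2 (0.16, adjusted p = 0.0679) and Emx1 (0.21, adjusted p = 0.158) were not called. Those called lower were Etv1 (-0.27), Foxp2 (-0.26) and Syt6 (-0.22), layer 5 and layer 6 genes, of which 0 or 1 were left without HT control replicate 3, HT shock replicates 1 to 4 or WT shock replicates 1, 2, 3 or 5. Etv1 (-0.11, adjusted p = 0.179) and Foxp2 (-0.11, adjusted p = 0.273) were not called after the length and GC correction either. Of 14 hippocampal genes 2 were called higher and 1 lower.

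Some presynaptic genes of vesicle release were called, mostly higher. Of 20 genes of synaptic vesicles and release, 4 were called higher and 1 lower, against 3.95% and 5.33% of all genes tested. Differences were positive for 13 and negative for 7, with a median of 0.01 (-0.005 without WT shock replicate 5). The shock groups did not overlap for 8.57% of all genes tested. Stx1a, the membrane SNARE syntaxin 1A, ranged from 5367 to 6432 normalized counts in HT shock with a median of 6174, and its WT shock libraries held 4440, 4894, 4670, 5157 and 4585. The groups did not overlap, and the difference was 0.35 ± 0.07 (SE, adjusted p = 0.00539). Syn1, the vesicle phosphoprotein synapsin I (0.19 ± 0.04, adjusted p = 0.00523), Syp, synaptophysin (0.17 ± 0.04, adjusted p = 0.00835), and Vamp2, the vesicle SNARE (0.12 ± 0.03, adjusted p = 0.0159), were also higher in every HT shock library than in every WT shock library. Vamp2 was not called after the length and GC correction (0.05, adjusted p = 0.36), and the other 3 stayed called under every alternative. The active zone gene Rims1 was called lower (-0.23), a call that was lost without any 1 of HT shock replicates 1 to 5 or WT shock replicates 1 to 5 and after that correction (-0.12, adjusted p = 0.108).

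Postsynaptic genes moved in both directions. Nrgn, neurogranin, a calmodulin binder of dendritic spines, ranged from 28345 to 34030 normalized counts in HT shock with a median of 30469, and its WT shock libraries held 23075, 22409, 24018, 25355 and 22237. All HT libraries exceeded all WT libraries (0.40 ± 0.07 SE, adjusted p = 0.00345). Itpka, an inositol phosphate kinase of spines (0.27 ± 0.05, adjusted p = 0.00651), was called higher under every alternative, as was Nrgn. Camk4 and Rasgrf2 were called lower. Of 15 postsynaptic kinases, phosphatases and calmodulin binders 3 were called higher and 2 lower, against 3.95% and 5.33% of all genes tested. Both lower calls were lost without any 1 of HT shock replicates 1 to 5 or WT shock replicates 1 to 3. Rasgrf2 also lost its call without WT shock replicate 5, HT control replicates 2, 3 or 5 or WT control replicates 2 to 6. Neither was called after the length and GC correction, at -0.47 for Camk4 (adjusted p = 0.0573) and -0.08 for Rasgrf2 (adjusted p = 0.173). The AMPA receptor auxiliary subunits Cnih2 (0.19), Cacng3 (0.19) and Cnih3 (0.22) were called higher, 3 of 15 in that list, while no pore-forming AMPA subunit was called. With the length and GC correction Cnih2 had 0.03 (adjusted p = 0.762) and Cacng3 0.13 (adjusted p = 0.133), and Cnih3 was still called (0.16, adjusted p = 0.0491). Of these 3 calls 0 were left without HT shock replicate 2 or 3 and 1 without WT shock replicate 5. The median of the AMPA list was -0.04, and that of the kinase list was -0.03. The first became positive after the length correction and the second after either correction.

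Genes of striatal projection neurons fell as a group. Of 21 tested, 13 were called lower and 0 higher, against 5.33% lower among all genes tested, with a median of -0.31. Between the unshocked groups the median was -0.18. Scn4b, a sodium channel subunit enriched in striatum, ranged from 4448 to 6777 normalized counts in HT shock with a median of 5389, and its WT shock libraries held 7738, 7995, 7739, 8586 and 8619. Adcy5, the adenylyl cyclase that couples dopamine receptors to cAMP, ranged from 5721 to 7550 with a median of 6687 in HT shock, against 8303, 8709, 8224, 8503 and 8082 in WT shock. Rasd2, the GTPase Rhes, ranged from 2653 to 3478 with a median of 2955, against 3601, 3732, 3798, 3751 and 3679. For these 3 genes every HT library lay below every WT library, and the WT libraries lay close together while the HT libraries spread widely. The differences were -0.54 ± 0.09 for Scn4b (SE, adjusted p = 0.0037), -0.33 ± 0.05 for Adcy5 (adjusted p = 0.00345) and -0.31 ± 0.05 for Rasd2 (adjusted p = 0.00337). Gng7, the G protein subunit that assembles with this cyclase, had -0.35 ± 0.06 (adjusted p = 0.0037).

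Within the striatal list, markers of both output pathways were lower. Drd1, the dopamine receptor of direct-pathway neurons, had -0.53 (adjusted p = 0.00859), and Drd2 and Adora2a, receptors of indirect-pathway neurons, had -0.56 and -0.69 (adjusted p = 0.0037 and 0.00377). The neuropeptide genes of these neurons were not called, at -0.20 for Penk, -0.09 for Tac1 and 0.09 for Pdyn. The summed level of the list ranged from 51058 to 71055 normalized counts in HT shock, and the WT shock libraries held 76217 to 77600, without overlap. It ranged from 62999 to 77976 in HT control and from 76524 to 84747 in WT control. With single libraries left out between 11 and 15 members were called lower, and after the length and GC correction 12 were, with a median of -0.32. How much of each library came from striatum was not tested.

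Genes of midbrain dopamine neurons, whose axons end in the striatum, were lower as well. Of 16 tested, 7 were called lower and 0 higher, against 5.33% lower among all genes tested. Their median was -0.39, and -0.05 without shock. Slc6a3, the dopamine transporter, ranged from 62.69 to 279.3 normalized counts in HT shock with a median of 131, and its WT shock libraries held 463.3, 340, 410.3, 447.8 and 631.8. The groups did not overlap, and the difference was -1.77 ± 0.37 (SE, adjusted p = 0.0115). Slc10a4, a vesicular transporter of monoamine and cholinergic neurons, ranged from 90.49 to 180.5 with a median of 123.5 in HT shock, against 187.1, 220.9, 206.8, 253.6 and 250.2 in WT shock (-0.81 ± 0.15, adjusted p = 0.0037). Chrna6, a nicotinic receptor subunit, ranged from 35.67 to 59.54 with a median of 47.04, against 80, 67.15, 102.2, 88.91 and 103.7 (-0.89 ± 0.17, adjusted p = 0.00539). Neither of those genes overlapped between the groups. Aldh1a1, a retinaldehyde dehydrogenase of ventral dopamine neurons and of other cells, had -0.28 ± 0.04 (adjusted p = 0.00337). The other members called were Slc18a2 (-0.58), not called without HT shock replicates 1, 2 or 3 or WT shock replicate 5, Ddc (-0.42), not called without HT shock replicates 1 or 3 or WT shock replicates 1 or 5, and Ret (-0.41), not called without HT shock replicates 1 or 2 or WT shock replicate 5. Th, the rate-limiting enzyme of dopamine synthesis, had -0.18 (adjusted p = 0.238), and the midbrain transcription factor Nr4a2, also an immediate early gene, had 0.26 (adjusted p = 0.115). Without HT shock replicate 1 or WT shock replicate 5, 4 of the 16 were called. The summed level of the dopamine list ranged from 6578 to 7905 in HT shock and was 8300 to 9251 in WT shock, and 1 of the 18 listed genes in the table was at 0 in a library. Aldh1a1 alone averaged 2694 in HT shock and 3262 in WT shock. The list scores, which weight each member equally, overlapped, at -0.555 to 0.023 in HT shock and 0.01 to 0.437 in WT shock.

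Other regional and transmitter lists, of 9 to 16 genes, had 1 or 2 calls each. Of all genes tested 3.95% were called higher and 5.33% lower. Differences were negative for 8 of 9 genes of serotonin, noradrenaline and acetylcholine neurons (median -0.28) and 10 of 11 thalamic genes (median -0.11). They were negative for 10 of 16 midbrain and hindbrain, 9 of 12 cerebellar and 7 of 11 hypothalamic genes. Of 9 serotonin, noradrenaline and acetylcholine neuron genes 1 was called lower, the choline transporter Slc5a7 (-0.56 ± 0.15 SE, adjusted p = 0.0249), a call lost without HT shock replicate 1, 2 or 3 or WT shock replicate 2 (adjusted p up to 0.0692). The thalamic and midbrain glutamate transporter Slc17a6 was lower (-0.33 ± 0.08, adjusted p = 0.0201), but not without HT shock replicate 1 or 2 (adjusted p up to 0.0558), and it was 1 of 2 called lower of 11 thalamic genes. Of 16 midbrain and hindbrain patterning and glycinergic genes 2 were called lower, with a median of -0.23, which the omission of WT shock replicate 5 moved to -0.056 and that of replicate 3 to -0.338. Pax5, a transcription factor of the early midbrain and of B cells, ranged from 20.25 to 33.09 normalized counts in HT shock with a median of 25.89, and its WT shock libraries held 157.8, 61.83, 56.39, 36.79 and 52.12. The groups did not overlap, with WT shock replicate 1 far above the rest (-1.26 ± 0.26, adjusted p = 0.00748). Of 12 cerebellar genes 1 was called lower, the cadherin gene Fat2 of granule cells (-0.30 ± 0.06, adjusted p = 0.011), which had 0.05 without shock and was not called after the length and GC correction (adjusted p = 0.256). Of 11 hypothalamic genes 1 was called higher.

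**Figure D2:**
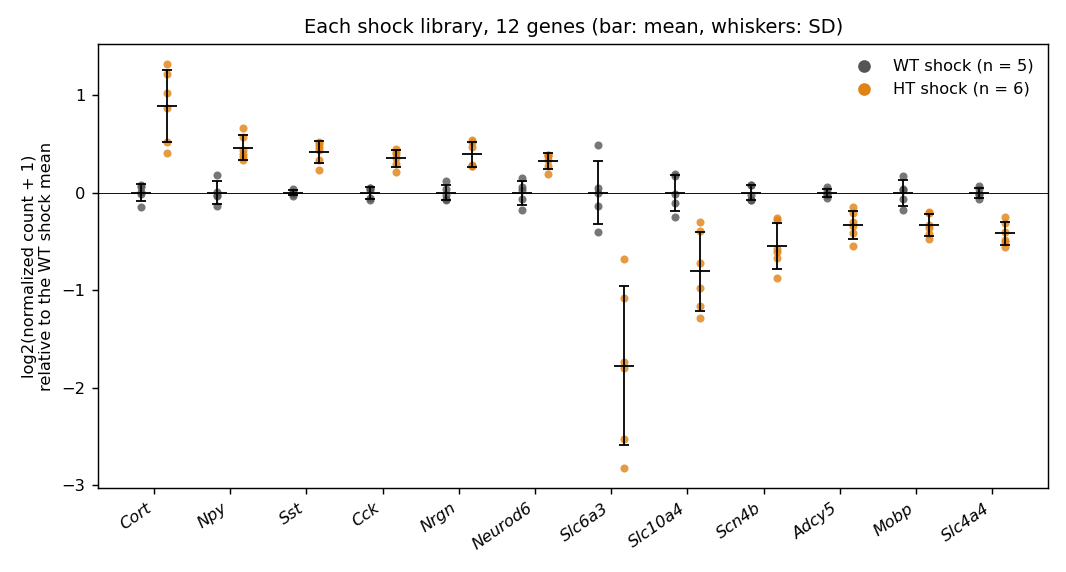
Each shock library for 12 called genes, as log2(normalized count + 1) relative to the WT shock mean of that gene (y axis), with a bar at the group mean and whiskers of 1 SD. The HT shock points lie above the WT shock points for the neuropeptide genes, Nrgn and Neurod6 and below them for the dopamine, striatal, myelin and astrocyte genes, with the widest spread for Slc6a3.

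Myelin genes were lower in HT shock. Of 24 mature oligodendrocyte genes, 10 were called lower and 0 higher, against 5.33% lower among all genes tested. Their median was -0.24, and -0.07 without shock. Mobp, an oligodendrocyte protein of compact myelin, ranged from 27333 to 33092 normalized counts in HT shock with a median of 29942, and its WT shock libraries held 33590, 36353, 38896, 42875 and 39112. No overlap was seen between the groups (-0.33 ± 0.06 SE, adjusted p = 0.00398). Myrf, the transcription factor that turns on myelin genes, ranged from 2205 to 2858 with a median of 2435 in HT shock, against 2768, 2896, 2873, 3105 and 3270 in WT shock, and the groups overlapped through WT shock replicate 1 (-0.28 ± 0.06, adjusted p = 0.00759). Mbp had -0.28 ± 0.06 (adjusted p = 0.0114) and Anln, a cytoskeletal protein of myelin septin filaments, -0.46 ± 0.10 (adjusted p = 0.0129). These 4 stayed called under every alternative. The number of members called was 4 without HT shock replicate 1, 2 or 3 or WT shock replicate 4 or 5. It was 6 without WT shock replicate 2. The summed level of the list ranged from 223446 to 275796 in HT shock and was 268538 to 335735 in WT shock, with overlap. Of 14 genes of oligodendrocyte precursors and newly formed oligodendrocytes 2 were called lower.

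Of 24 astrocyte genes tested, 8 were called lower and 0 higher, against 5.33% lower among all genes tested. Their median was -0.12, and -0.03 without shock. Slc4a4, a bicarbonate cotransporter, ranged from 4420 to 5461 normalized counts in HT shock with a median of 4787, and its WT shock libraries held 6426, 6795, 6208, 6416 and 6651, without overlap (-0.42 ± 0.08 SE, adjusted p = 0.00539). Glul, glutamine synthetase, ranged from 39524 to 44253 with a median of 40043 in HT shock, against 44213, 47468, 49857, 45467 and 49604 in WT shock, so that the highest HT library just passed WT shock replicate 1 (-0.20 ± 0.04, adjusted p = 0.0063). Ndrg2, an abundant astrocyte protein, had -0.17 ± 0.03 (adjusted p = 0.00337). Slc1a2, the main glutamate transporter, had -0.29 ± 0.06 (adjusted p = 0.0093) and -0.09 (adjusted p = 0.0661) after the length and GC correction. Of the 24 differences 18 were negative and 6 positive. Among the members not called were Aldh1l1 (0.01), Sox9 (0.07) and Gfap (0.05). The number called was 5 without HT shock replicate 1, 2 or 3. The summed level of the list ranged from 266887 to 298478 in HT shock and was 301074 to 318686 in WT shock, without overlap. The list scores, which weight each member equally, did overlap, at -0.134 to 0.028 in HT shock and 0.009 to 0.11 in WT shock.

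Vascular, ventricular and immune markers showed few calls after shock. Of 21 microglial genes 1 was called higher, of 20 endothelial genes 1 was called higher, and of 17 mural and 17 choroid plexus and ependymal genes 0 were called by limma. The choroid plexus median was 0.09 after shock (0.017 when WT shock replicate 2 was left out and 0.207 when replicate 1 was), and the summed level of that list ranged from 12861 to 20496 in HT shock and was 11369 to 17024 in WT shock. Its members' part in the other results was not tested.

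Genes that glucocorticoid hormones induce, a readout of the stress axis, had mostly negative differences in HT shock. Of 25 tested, 24 had negative differences with a median of -0.20. Of these genes 4 were called lower and 0 higher, against 5.33% lower among all genes tested. Between the unshocked groups all 25 were negative, with a median of -0.13. Hif3a ranged from 175.9 to 352.2 normalized counts in HT shock with a median of 267.8, and its WT shock libraries held 411.8, 351.7, 494, 318.4 and 467.7. WT shock replicates 2 and 4 lay within the HT range (-0.64 ± 0.17 SE, adjusted p = 0.0266). Pdk4, a kinase that restrains glucose oxidation, had -0.44 ± 0.12 (adjusted p = 0.029). The number of members called was 0 without HT shock replicate 1, 2 or 4 or WT shock replicate 3, 1 without HT shock replicate 3 or WT shock replicate 5. It was 2 without WT shock replicate 1 or 2. Fkbp5, a widely used glucocorticoid target picked as such, had -0.16 (adjusted p = 0.28). The list scores of the groups overlapped. They ranged from -0.259 to -0.007 in HT shock, and the WT shock libraries held 0.27, -0.097, 0.768, -0.119 and 0.163.

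The respiratory chain is encoded in part by the mitochondrial genome and in part by the nucleus. Of 13 protein genes of the mitochondrial genome 6 were called lower and 0 higher, against 5.33% lower among all genes tested. Their median was -0.15, and -0.22 without shock. mt-Co1, a subunit of cytochrome c oxidase, ranged from 528283 to 605697 normalized counts in HT shock with a median of 560030, and its WT shock libraries held 645093, 705784, 649751, 634208 and 640994. Every HT library lay below every WT library (-0.22 ± 0.05 SE, adjusted p = 0.0129). The complex I genes mt-Nd5 (-0.37 ± 0.08, adjusted p = 0.0134), mt-Nd2 (-0.26 ± 0.06, adjusted p = 0.0167) and mt-Nd4 (-0.20 ± 0.05, adjusted p = 0.0159) were lower without overlap as well. Between the unshocked groups these 4 had -0.17, -0.29, -0.22 and -0.20 in the same order. The shock groups did not overlap for 8.57% of all genes tested. When libraries of equal title number were fitted as a block, mt-Nd4 was not called (adjusted p = 0.0519). mt-Atp6 (0.36) and mt-Co3 (0.43) had positive differences and were not called. Mitochondrial genes share sequence with nuclear copies, so their values are uncertain where reads could be assigned to either.

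Of 72 nuclear genes of the respiratory chain 10 were called higher and 0 lower, with 68 positive and a median of 0.11. Ndufab1, an acyl carrier protein of complex I, ranged from 2291 to 2593 normalized counts in HT shock with a median of 2450, and its WT shock libraries held 1996, 1901, 1823, 1908 and 2092. The groups did not overlap, and the difference was 0.32 ± 0.07 (SE, adjusted p = 0.0078), against 0.01 without shock. Ndufab1 stayed called under every alternative, but the list did not keep its pattern. After the length and GC correction 4 were called higher and 3 lower with a median of 0.02. The count of members called higher fell to between 1 and 4 without any 1 of HT shock replicates 1 to 4 or WT shock replicates 1, 2, 3 or 5, and it was 16 without HT shock replicate 6 and 23 without HT control replicate 6. Proteasome subunits, which degrade tagged proteins, had 7 of 37 called higher and 0 lower with a median of 0.10, and 3 called after the length and GC correction. With single libraries left out the proteasome count was 0 without HT shock replicate 1 or 2 or WT shock replicate 1, from 1 to 4 without HT shock replicate 3, 4 or 5 or WT shock replicate 2, 3 or 5, and 12 without HT control replicate 6. Cytosolic ribosomal protein genes had 4 of 76 called higher and 0 lower with a median of 0.09, and 0 higher and 5 lower with a median of -0.01 after that correction. Over all genes tested 3.95% were called higher, and the ribosomal share lay near this. Rpl35 had 0.26 ± 0.06 (adjusted p = 0.0159), and 0.12 (adjusted p = 0.197) after the correction. The ribosomal count was 1 or 2 without HT control replicate 2 or 3, HT shock replicates 1 to 4, WT control replicate 5 or any 1 of the WT shock libraries, and 13 without HT control replicate 6.

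**Figure D3:**
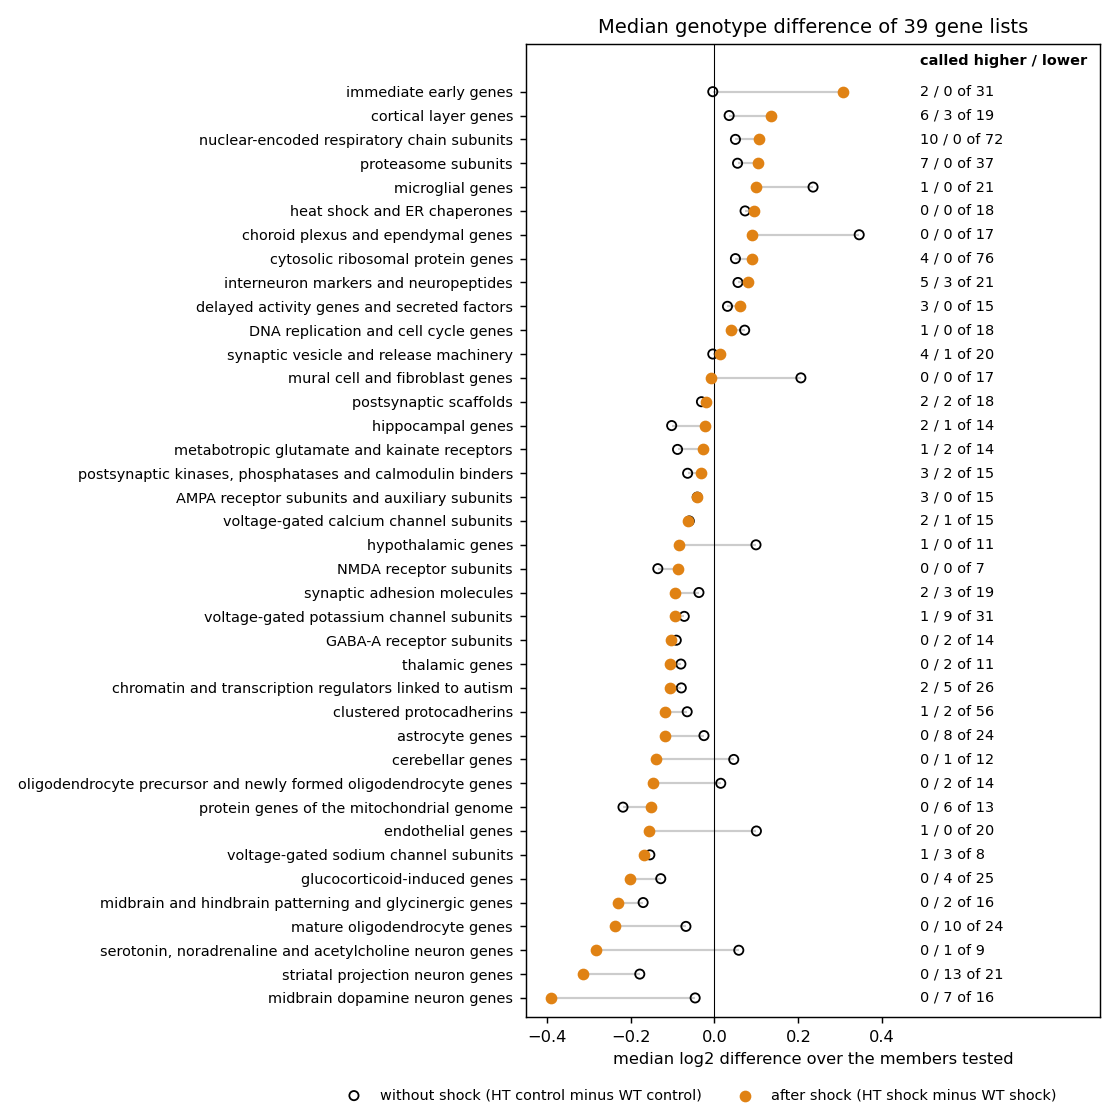
Median log2 difference between HT and WT over the tested members of each gene list, after shock (filled) and without shock (open), with the number of members called higher and lower after shock at the right. Dopamine, striatal and oligodendrocyte genes lie lowest after shock among the lists with 7 or more calls, and immediate early genes have the highest median with 2 calls. Over all genes tested 3.95% were called higher and 5.33% lower.

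Ion channel, adhesion and chromatin genes, many of them long, were mostly on the lower side. Of 31 voltage-gated potassium channel genes 9 were called lower and 1 higher, against 5.33% lower and 3.95% higher among all genes tested. The median of these channel genes was -0.09. Their summed level ranged from 96719 to 99235 normalized counts in HT shock, and the WT shock libraries held 102659 to 110710, without overlap. Kcna1, a delayed rectifier of axons, ranged from 1715 to 2003 in HT shock with a median of 1852, and its WT shock libraries held 2586, 2648, 2933, 2446 and 2576, without overlap (-0.51 ± 0.13 SE, adjusted p = 0.027). Kcna1 was not called without HT shock replicate 1 or 2 or WT shock replicate 1, 2 or 3 (adjusted p up to 0.0648). After the length and GC correction 4 potassium channel genes were called lower and 2 higher. The count called lower was 0 without WT shock replicate 2, 1 without HT shock replicate 1 or 2 or WT shock replicate 3, 2 without WT shock replicate 1, 3 without HT shock replicate 3 and 5 without HT shock replicate 4. Of 8 sodium channel genes 3 were lower and 1 higher, and Scn4b was the 1 gene called lower that kept its call under every alternative. Cacnb1, a calcium channel accessory subunit, was higher (0.18 ± 0.04, adjusted p = 0.0145), a call lost after the length and GC correction (adjusted p = 0.065).

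Il1rapl1, a synaptic adhesion protein, ranged from 386.7 to 441.3 normalized counts in HT shock with a median of 404.6, and its WT shock libraries held 527.3, 586.4, 603.3, 495 and 513.8. No overlap was seen between the groups (-0.41 ± 0.09 SE, adjusted p = 0.0114), while after the length and GC correction the difference was -0.17 (adjusted p = 0.0584). The adhesion list had 3 of 19 lower and 2 higher, and 0 in either direction after that correction. Of 26 chromatin and transcription regulators linked to autism 5 were called lower and 2 higher, against 5.33% and 3.95% of all genes tested. Their median was -0.11. After the correction 3 were higher and 0 lower, with a median of 0.02. Bcl11a, a transcription factor of cortical neurons, was higher in every HT shock library (2667 to 3193 normalized counts, median 2857) than in the WT shock libraries (2513, 2514, 2522, 2542 and 2289). Its difference was 0.23 ± 0.05 (adjusted p = 0.00845), and 0.35 (adjusted p = 0.00716) after the correction, against -0.01 without shock. Of 14 GABA-A receptor subunit genes 2 were lower, and 0 lower and 1 higher after the correction. The medians of the GABA-A, adhesion and chromatin lists changed sign with it.

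Transcript length and base composition separated the genes called higher from those called lower. Genes called higher had a median transcript length of 2448 bases and a median GC content of 54.7%, genes called lower 5728 bases and 45.9%, and all genes tested 3237 bases and 49.6%. Both properties are those of the longest annotated transcript of each gene, which may not be the one expressed in these libraries. Among the length quartile with the shortest transcripts 6.38% were called higher and 0.842% lower, and among the quartile with the longest 1.43% and 13.8%. Each library was given a balance, the median log2 deviation of the longest quartile minus that of the shortest. The HT shock libraries held -0.167, -0.177, -0.17, -0.136, -0.114 and -0.011, and the WT shock libraries 0.063, 0.061, 0.126, -0.001 and 0.004. The groups did not overlap (2-sided exact permutation p = 0.00433, the smallest these groups allow, adjusted p = 0.0173 over 4 such tests). HT control libraries ranged from -0.304 to 0.152 and WT control libraries from -0.032 to 0.169 (exact permutation p = 0.303). The same balance by GC content ranged from 0.005 to 0.152 in HT shock and was -0.106 to 0.022 in WT shock (exact permutation p = 0.00866, adjusted p = 0.0173), and it gave p = 0.0974 by the exact test between the unshocked groups. The balance was chosen after seeing the data. When each library was corrected for both trends, 946 genes were called, 455 higher and 491 lower, of which 644 were among the 1589. What moved the balance was not tested.

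**Figure D4:**
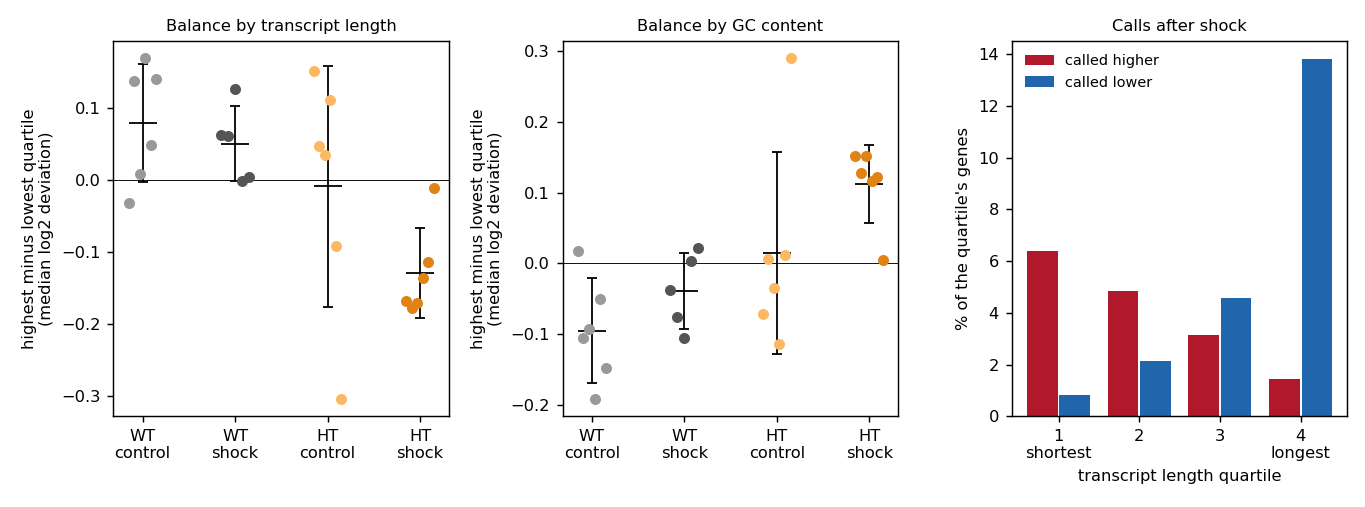
Balance of each library by transcript length (left) and GC content (middle), the median log2 deviation of the highest quartile of genes minus that of the lowest, with a bar at the group mean and whiskers of 1 SD. The right panel gives the percent of genes called after shock in each transcript length quartile, from 6.38% higher and 0.842% lower in the shortest to 1.43% and 13.8% in the longest.

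The same genotypes without shock gave a smaller difference in mostly the same direction. Between HT control and WT control 0 of 17118 genes were called by limma, with 1895 at an unadjusted p under 0.05, against 4773 at that level after shock. Of the 1589 genes called after shock, 91.6% had the same sign without shock, against 67% of the genes that were not called. This was so for 578 of 676 genes called higher and 877 of 913 called lower, and their median differences without shock were 0.07 and -0.12. Because these genes were selected by their difference after shock, smaller differences without shock are expected from the selection alone. Some genes differed by similar amounts in both conditions. Foxo1, a transcription factor of insulin signalling, had -0.33 ± 0.06 (SE, adjusted p = 0.00345) after shock and -0.28 ± 0.05 without, and mt-Nd4 had -0.20 in both. Creb3, a membrane-bound transcription factor of the secretory pathway, had 0.39 ± 0.07 (adjusted p = 0.00345) after shock and -0.01 ± 0.06 without. Its HT shock libraries ranged from 1165 to 1272 normalized counts with a median of 1196, against 895.9, 1073, 846.2, 885.8 and 893.4 in WT shock.

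The difference between those genotype differences was tested by the interaction of genotype and shock, and 0 genes passed by limma. The smallest adjusted p was 0.552, and 1101 genes had an unadjusted p under 0.05, of which 426 were among the 1589. The interaction contains the difference after shock. Small interaction p-values are therefore expected more often among genes selected by that difference, including the genes named next. The unadjusted interaction p of Creb3 was 0.000164, that of Cort 0.00208 and that of Slc6a3 0.00856. Since 0 genes passed, no gene or list is shown to differ between shocked and unshocked mice in its genotype difference.

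**Figure D5:**
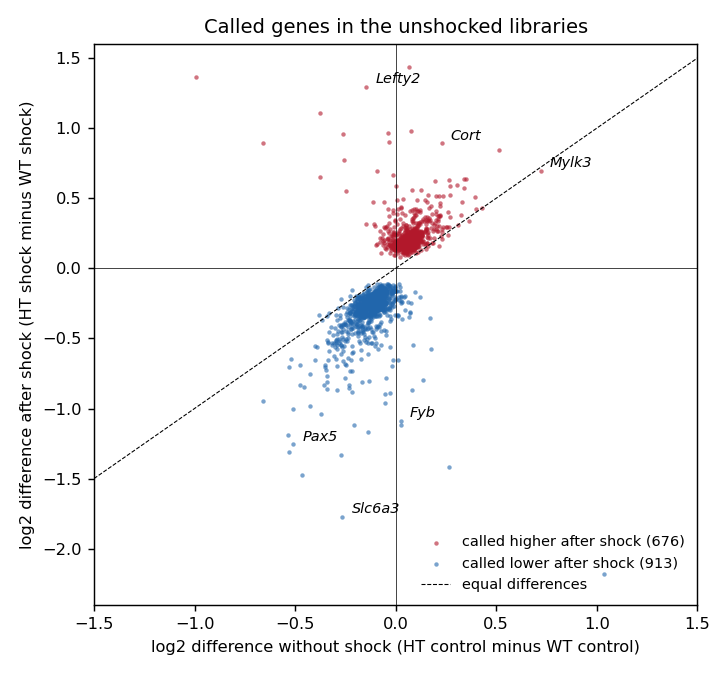
Genotype difference without shock (x axis) against that after shock (y axis), both on the log2 scale, for the genes called after shock, with the dashed line at equal differences. Most genes called lower lie at negative values without shock and below the line, and 2 called genes lie outside the frame.

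Among the remaining genes with the smallest p, Tbc1d16, a Rab GTPase-activating protein, ranged from 1934 to 2131 normalized counts in HT shock with a median of 2067, and its WT shock libraries held 2412, 2550, 2456, 2452 and 2524. It had the smallest adjusted p of all genes (-0.27 ± 0.04 SE, adjusted p = 0.00311). Soga1 ranged from 1034 to 1274 with a median of 1108, against 1638, 1665, 1628, 1543 and 1655 in WT shock (-0.53 ± 0.08, adjusted p = 0.00337), and Kctd9 had -0.39 ± 0.06 (adjusted p = 0.00337). On the higher side were Lingo1, a neuronal receptor component that limits myelination (0.34 ± 0.05, adjusted p = 0.00337), the brain adenylate kinase Ak5 (0.24 ± 0.04, adjusted p = 0.00345) and the transcriptional corepressor Trim28 (0.27 ± 0.05, adjusted p = 0.00345). None of these 6 genes overlapped between the groups, and all stayed called under every alternative.

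The genes named for the size of their difference were mostly of low abundance. Lefty2, an inhibitor of Nodal signalling, ranged from 23.16 to 54.51 normalized counts in HT shock with a median of 38.01, and its WT shock libraries held 10.61, 31.51, 12.3, 13.05 and 11.65. WT shock replicate 2 lay within the HT range (1.29 ± 0.30 SE, adjusted p = 0.0153). Fyb, an adaptor protein of immune cells, ranged from 18.79 to 31.78 with a median of 22.24, against 35.8, 73.1, 62.15, 39.89 and 54.6 without overlap (-1.09 ± 0.26, adjusted p = 0.0159), and it had 0.03 without shock. Of the 12 genes with the 6 highest and 6 lowest differences, Lefty2, Cort, Slc6a3, Pax5 and Fyb kept their calls with any library left out. The other 7, namely Mcm10, Mylk3, Tcap, Mcmdc2, Kcng3, Glra1 and Ptpn7, lost theirs in 4 to 16 of the 23 omissions, and Glra1 lost its call most often, also without 6 of the unshocked libraries.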

How the data were processed

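RNA-seq of mouse brain libraries was available as 1 table of 18578 genes. Its values are a signal of normalized counts with decimals, which the authors scaled between libraries and deposited, and raw counts were not used here. Salmon 1.1.0, DESeq2 1.26.0, R 3.6.2 and GRCm38 are named in the submitters' processing notes, with no role given, and further steps are not given in the sources used here. How the authors' scaling treated transcript length and base composition is therefore unknown, and sequencing depth is unknown as well, so no counting error is given. Library totals were 30.98 M to 32.57 M normalized counts. The table names genes by identifier, and 18563 were matched to a symbol (GENCODE M21, GRCm38). Transcript length and GC content were taken from the longest transcript of each gene in that annotation. Of 24 columns of per-sample values, 1 matched no sample label and was not used. The library names in the titles number the 5 WT shock libraries 1, 3, 4, 5 and 6, whereas the replicate numbers given here, 1 to 5, are those of the titles. No 2 of the shock libraries were duplicates (highest r of log2 values 0.9907).

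Genes with a mean of at least 10 over the 23 labelled libraries (17118) were tested on log2(normalized count + 1). limma 3.58.1 (R 4.3.3, statmod 1.5.0) fitted the 4 group means in 1 model with trend and robust moderation, and p-values were adjusted over all genes tested (Benjamini-Hochberg, threshold 0.05). The fit was tested on simulated data. The contrasts were HT shock minus WT shock, HT control minus WT control, and the difference between them. No block was used, since the labels do not say that equal numbers share an animal, litter or day. A gene does not overlap when all libraries of 1 group lie above all of the other.

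The libraries compared follow from the labels, but the comparison, the 40 gene lists and the genes named were chosen with earlier results of these data known. 1 of those lists holds the neighbours of Grin2b. The rule named Grin2b and, among genes that were called, averaged 20 or more and had no predicted, clone or pseudogene name, the 8 smallest p in each direction, the 6 highest and 6 lowest differences, and of each list up to 4 called members with the smallest p, or the 1 member with the smallest p where none was called. Other list members were named after their values were seen, because they complete a count or are the best known of their list. Alternatives were median centring, other filters (none, or 20 in at least 5 libraries), library weights, pseudocounts of 0.5 and 5, a fit of the compared groups alone, a residual component, replicate blocks, a length correction, a threshold of 0.1 and each library left out. A correction for length and GC content was added after seeing the data. scipy 1.17.1 gave the exact permutation tests and matplotlib 3.10.9 the plots. Some list members that the rule named are not reported here.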

Additional observations from a re-analysis of the deposited data

Results flagged for a closer look

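In 220 pairs of a gene named in the report and a shock group, 18 had 1 library whose distance from the others exceeded Dixon's 95% critical value (0.71 for 5 libraries and 0.625 for 6), and chance flags about 1 in 20 groups. All values are normalized counts, each with the nearest other library of its group. In WT shock replicate 5, Vamp2 stood at 30048 (nearest 31922), Cacng3 at 2298 (2592), Bcl11a at 2289 (2513) and Slc18a2 at 438 (344). In WT shock replicate 2, mt-Co1 stood at 705784 (nearest 649751), Creb3 at 1073 (896), Cnih2 at 3741 (4092) and Lefty2 at 31.5 (13.1). In WT shock replicate 3, Crebl2 stood at 1673 (nearest 1563). WT shock replicate 1 held the Pax5 value of 158 (nearest 61.8), and WT shock replicate 4 the Tac1 value of 775 (919).

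In HT shock replicate 6, Grin1 stood at 18583 (nearest 20123), Nptx2 at 1076 (983), Camk4 at 1334 (1249) and Slc1a2 at 54542 (47299). In HT shock replicate 2, mt-Co3 stood at 14194 (nearest 56170) and Rpl35 at 3082 (2807). Ier5 was lowest in HT shock replicate 5, at 1874 (nearest 2438). Libraries that stood apart in this way lay toward the other genotype's values for some genes, such as Ier5, Creb3 and Lefty2, and away from them for others, such as Pax5, mt-Co1, Vamp2 and Bcl11a.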

How the results depend on the processing

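The number of genes called between HT shock and WT shock was 1589. It was 2932 when the compared groups alone were fitted, 3775 with library weights, 3092 at an adjusted p under 0.1 and 946 with the length and GC correction, and it stayed within 1.5 times under the other settings without a block (1073 with the length correction to 2307 with a residual component). With 1 library left out it ranged from 422 to 2923. Median centring gave 599 higher and 989 lower. Between the unshocked groups 0 became 5 at an adjusted p under 0.1, 6 with the length correction and 5 with the length and GC correction, and ranged from 0 to 2 with 1 library left out. The interaction gave 0, but 2 with library weights, 1 with the length and GC correction and 0 to 1 with 1 library left out.

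Whether equal replicate numbers share an animal, litter or day could not be settled from the values. Between shock libraries of equal number, correlations of deviations from the group means ran from -0.004 to 0.14 by title number. By the number in the library name they ran from -0.114 to 0.043. By title number, 4 of the 5 HT libraries with a numbered partner (1, 2, 4 and 5) correlated best with it, a hint from the data and not from the design, and HT shock replicate 3 did not. With a replicate block 450 genes were called by title number (448 of them among the 1589) and 976 by library name number (959 of them), and the block left the other 2 comparisons at 0.

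Of 110 genes named with a difference, 61 kept their direction and their side of the threshold under all 36 alternatives. The length and GC correction ended the call of 27, the length correction that of 15 and the block by title number that of 22. Among those that lost their call with this block were Jund, Cnih2, Cacng3, Slc18a2, Slc5a7, Pdk4, Kcna1 and mt-Nd4. The direction reversed for Kcnc1 with the length correction (0.007), for Gfap (-0.024) and Aldh1l1 (-0.002) with the length and GC correction, for Npas4 without WT shock replicate 5 (-0.024, and up to 0.271 with other libraries left out), and for Aldh1l1 without any 1 of HT shock replicates 3 and 4 and WT shock replicates 3 and 5 (-0.015 to 0.035 with any library left out). The cause was not tested.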

Other observations

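Vascular, immune and ventricular lists held few calls after shock and had other medians without it. Of 20 endothelial genes 4 had positive differences after shock, with a median of -0.156, and 18 were positive without shock, with a median of 0.1. Of these genes 10 had an unadjusted interaction p under 0.05, and none passed after adjustment. The one called after shock was Egfl7, a secreted endothelial protein. All 17 mural cell and fibroblast genes were positive without shock (median 0.206) and 6 after it (median -0.009, and -0.072 to 0.062 with 1 shock library left out). All 21 microglial genes were positive without shock (median 0.235) and 16 after it (median 0.1, but -0.037 without WT shock replicate 2), and Cd68, a lysosomal protein of phagocytes, was the one called higher after shock. All 17 choroid plexus and ependymal genes were positive without shock (median 0.345) and 14 after it (median 0.089).

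Clustered protocadherins, adhesion proteins that give neurons their surface identity, had 1 gene called higher (Pcdhgc4) and 2 lower (Pcdhb7 and Pcdhb16) of 56, and they share sequence, so that reads may be split between them. Of 18 heat shock and ER chaperones 0 were called by limma, with 15 positive in each comparison and 1 gene at an unadjusted interaction p under 0.05.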
